A study of Mus musculus with 7 samples.

Results

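The 1 olfactory epithelium library from wild-type mice was compared with the 6 libraries from mice lacking Amigo1, taken as 1 group, and all 7 libraries of the series were used. The olfactory epithelium is the sensory lining of the nose. All 7 libraries came from mice at postnatal day 7. The wild-type library (WT) is Amigo1+/+, 3 libraries are Amigo1-/- (KO), and 3 are Amigo1neo/neo (neo), a knock-out allele that still carries a neomycin selection cassette. The deficient libraries share the loss of Amigo1 and differ in the cassette. Sample names give WT and KO the same leading code and date-like number and neo another. The labels explain neither, and the pooled group mixes both codes. The WT library has no replicate, and a gene was described by whether WT lay outside the range of all 6 deficient libraries. The 4 summary rows of the count table and 4182 genes on chromosomes X and Y were left out, which left 46418 genes, of which 18530 had enough counts to be measured.

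Amigo1 encodes a cell surface protein with leucine-rich repeats and an immunoglobulin domain that promotes neurite growth and associates with Kv2 voltage-gated potassium channels. In the olfactory epithelium, basal stem cells give rise to olfactory sensory neurons, which each express 1 olfactory receptor gene and send an axon to the olfactory bulb, among sustentacular support cells and mucus glands. A dissected epithelium also holds nerve, glia, vessel, blood and bone cells. Autonomic neurons that innervate nasal glands and vessels lie in ganglia near the nose, where parasympathetic neurons use acetylcholine, vasoactive intestinal peptide and nitric oxide.

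The libraries held 14879415 to 21343058 gene counts, and every pair of libraries differed by more than sampling noise (chi-square of at least 9.45 for each degree of freedom). The mature olfactory neuron list checked the tissue label: its 18 measured genes summed to 4636 CPM (counts scaled to library size, with TMM factors) in WT and 4046 to 5270 CPM in the deficient libraries, with Omp, the olfactory marker protein gene, at 990.2 CPM in WT and 805 to 1192 CPM in the others. Xist, which coats the silenced X chromosome of female cells, reached 661 CPM in the WT library and 1178 CPM in neo replicate 1, with no more than 4.29 CPM in the others. Ddx3y, a Y chromosome gene, stood at 0.0472 CPM in WT and 0 in neo replicate 1, and at 62.3 to 86.8 CPM in the others. Thus WT and neo replicate 1 had a female pattern and the other deficient libraries a male one. Outside neo replicate 1 that pattern and genotype cannot be told apart. Neo replicate 1 also stood apart in skeletal muscle genes, at a summed 1804 CPM against 30.1 CPM in WT, and KO replicate 3 in ensheathing glia genes, at 1071 CPM against 504 CPM in WT.

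WT lay outside the range of the 6 deficient libraries in 2966 genes (16.0% of those measured), above all 6 in 1501 (8.10%) and below all 6 in 1465 (7.91%). With library size alone as the scaling the split was 1654 higher and 910 lower, and with the deposited TPM 1556 higher and 732 lower. Most of these distances were small. The gap, which is the fold between WT and the nearest deficient library on CPM + 0.5, had a median of 1.05-fold, and 2263 gaps were under 1.1-fold. At a gap of at least 2-fold 11 genes remained (0.0594%), 10 with WT higher (0.0540%) and 1 with WT lower (0.00540%). Among the 10 were Amigo1, Vip, Hand2, Htr3a, Slc18a3, Nwd2, Chrna3, Tlx2 and Phox2a, and the 1 was Gpr61. Of the 10, 8 did not pass the count filter when it was run on the deficient libraries alone; among genes that passed in the deficient libraries, 3 had such a gap (Htr3a, Chrna3 and Gpr61). At 1.5-fold there were 22 higher and 3 lower. By edgeR, which borrows the spread of the deficient libraries for WT, 1 gene passed at an adjusted p under 0.05 (0.00540%), and 125 genes had an unadjusted p under 0.05 where 926 of 18530 are expected by chance. The count of genes past edgeR was 2 without KO replicate 1 (Amigo1 added), 3 without KO replicate 3 (Amigo1 and Pcna-ps2 added) and 2 without neo replicate 3 (Vip added). For a single gene, an exact two-sided permutation test of 1 library against 6 can go no lower than p = 0.286.

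**Figure D1:**
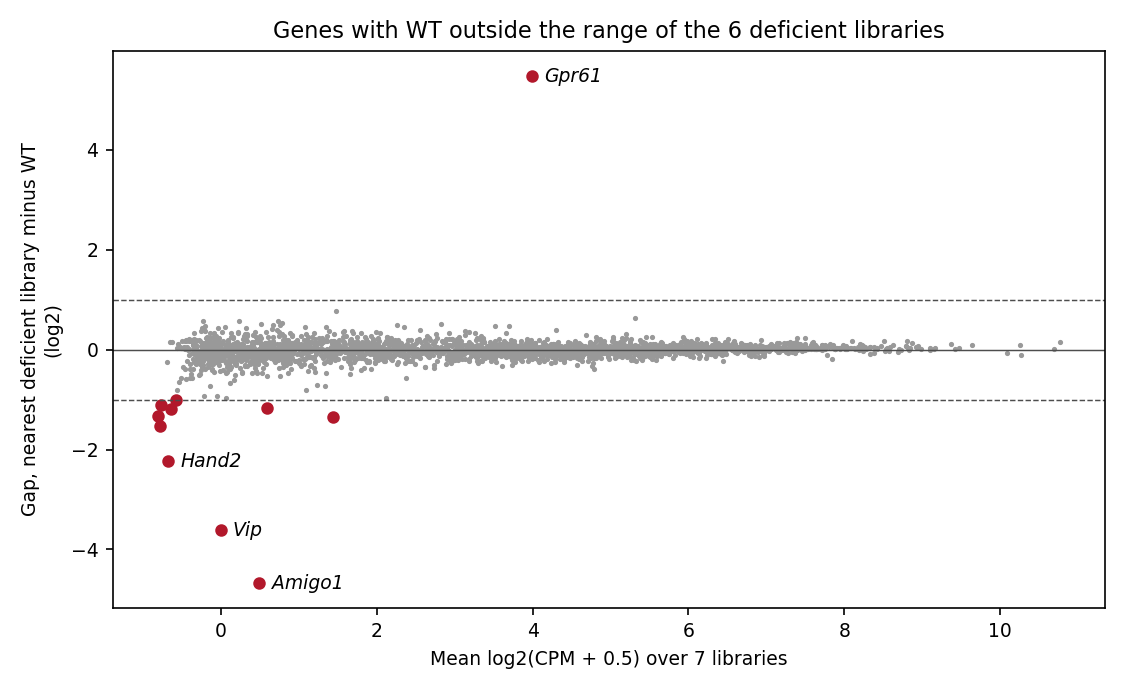
Each point is a measured gene with WT outside the range of the 6 deficient libraries, placed by its mean log2(CPM + 0.5) over the 7 libraries (x axis) and its gap, the nearest deficient library minus WT on the log2 scale (y axis); dashed lines mark a 2-fold gap and red points the 11 genes at or beyond it. Gpr61 stands alone above and Amigo1, Vip and Hand2 lie lowest, while most gaps sit close to 0.

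Upstream windows are shown for 3 of the genes with WT higher, picked by hand from those known from autonomic neurons. Others with a RefSeq entry, such as Slc18a3 and Phox2a, are not printed. Shared regulation of these genes was not tested. The sequences are RefSeq entries on GRCm38.p6, 5′ to 3′ on the gene's strand, for the 250 bases before the start of Vip (chr10:5638968-5639217, plus strand), Hand2 (chr8:57320733-57320982, plus strand, overlapping an exon of the antisense gene Hand2os1) and Chrna3 (chr9:55026563-55026812, minus strand). Capitals mark every match, on either strand, to CANNTG (the E-box read by basic helix-loop-helix proteins such as Hand2), TATAAA (bound by the general transcription factor TBP) and also to TGACG (the core of a cAMP response element).
Vip: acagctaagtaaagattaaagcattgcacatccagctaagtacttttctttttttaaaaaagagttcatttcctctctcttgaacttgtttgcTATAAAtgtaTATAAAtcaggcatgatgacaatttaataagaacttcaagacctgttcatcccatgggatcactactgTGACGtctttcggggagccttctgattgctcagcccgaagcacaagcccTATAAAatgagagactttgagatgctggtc
Hand2: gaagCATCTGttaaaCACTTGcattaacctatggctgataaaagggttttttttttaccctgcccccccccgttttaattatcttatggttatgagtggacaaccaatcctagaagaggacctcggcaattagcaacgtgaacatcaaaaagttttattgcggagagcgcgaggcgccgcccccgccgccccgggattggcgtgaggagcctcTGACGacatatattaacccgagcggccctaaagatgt
Chrna3: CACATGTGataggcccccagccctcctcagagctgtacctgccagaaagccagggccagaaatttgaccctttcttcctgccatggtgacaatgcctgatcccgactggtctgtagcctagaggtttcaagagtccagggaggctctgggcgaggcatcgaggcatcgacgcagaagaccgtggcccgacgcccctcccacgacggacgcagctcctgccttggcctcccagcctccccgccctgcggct
Vip holds 3 matches to TATAAA and 1 to TGACG and none to CANNTG. Hand2 holds 2 matches to CANNTG and 1 to TGACG, and Chrna3 holds 2 overlapping matches to CANNTG. Among 32851 windows of this length, 66.2% hold CANNTG, 12.4% TATAAA and 17.8% TGACG. Of the 33 genes that were ranked or placed by the naming rule, 24 had a RefSeq entry; Gpr61, Htr3a and Tlx2 were among those with none.

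The targeted gene came first. Amigo1 (chromosome 3, 108186335 to 108192286, GRCm38, plus strand) stood at 35.1 CPM in WT, against 0, 0.44 and 0.906 CPM in KO replicates 1 to 3 and 0.482, 0.307 and 0.0683 CPM in neo replicates 1 to 3. WT was far above every deficient library, with a gap of 25.3-fold. Amigo1 was measured through the WT library, since it did not pass the count filter in the deficient libraries alone. Pooled counts were 90.3-fold higher in WT (95% counting interval 65.95 to 126.9), and the edgeR difference was -6.50 (log2, SE 0.66, adjusted p = 0.118), so it did not pass; the adjusted p was 0.0164 without KO replicate 1 and 0.0309 without KO replicate 3 and reached 1 under other alternatives (edgeR). Its paralogs stayed within the range. Amigo2 stood at 4.86 CPM in WT and 3.59 to 9.01 CPM in the deficient libraries, and Amigo3 at 4.67 CPM in WT and 3.02 to 4.99 CPM. Of 11 measured genes for Kv2 channels and their partners, 1 lay outside the range (9.09%, against 16.0% of all measured genes). The list's mean log2 level was within the range. The 1 gene was Kcng1, a silent subunit that joins Kv2 channels. Kcng1 stood at 12.6 CPM in WT and 7.10, 9.35 and 10.402 CPM at the lowest, median and highest deficient library (adjusted p = 1, edgeR).

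Gpr61 ran the other way. It encodes an orphan receptor that couples to G proteins and lies on the minus strand at 108148321 to 108154882 of chromosome 3, 31.45 kb from Amigo1. WT had 1 count of it, or 0.0472 CPM, while it was at 27.8, 28.3 and 28.7 CPM in KO replicates 1 to 3 and 29.8, 23.9 and 25.5 CPM in neo replicates 1 to 3. All 6 deficient libraries, neo replicate 1 among them, sat at a like level far above WT. The part of high Xist in this difference was not tested. The pooled ratio was 583.5 (95% counting interval 104.6 to 23050), resting on 1 WT count, and the gap was 44.5-fold. Gpr61 rose by 8.98 (log2, SE 0.38, adjusted p = 9.68e-06, edgeR), higher in 6 of 6 libraries, and was the only gene to pass.

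**Figure D2:**
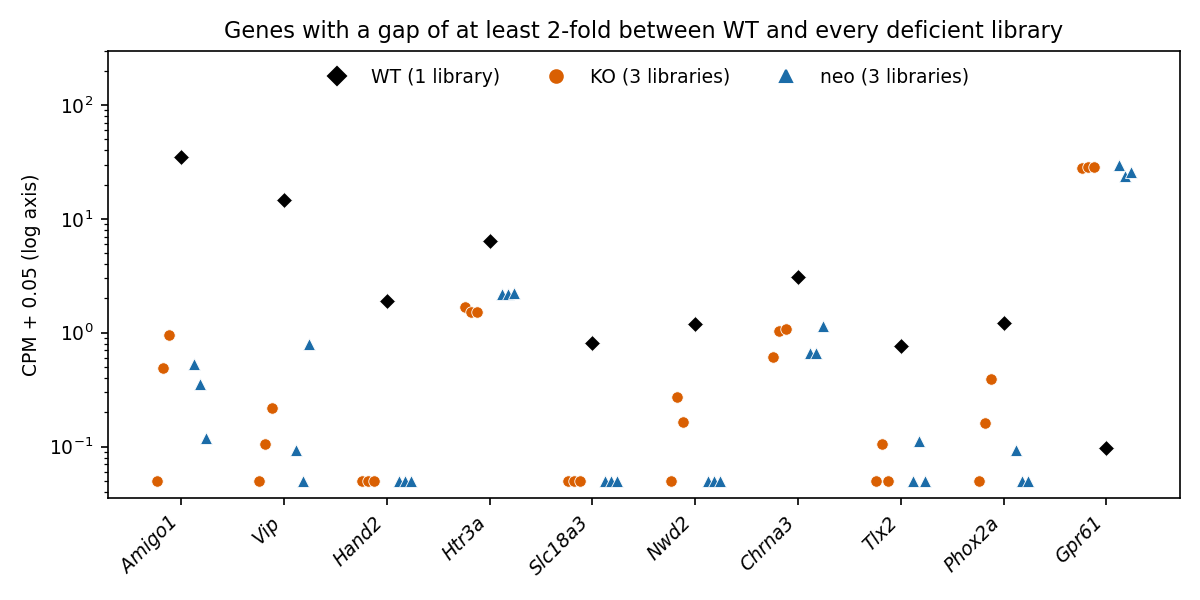
Level of 10 of the 11 genes with a gap of at least 2-fold, as CPM + 0.05 on a log axis, for each library by group (black diamonds WT, orange circles KO, blue triangles neo). WT lies above every deficient library for 9 of those drawn, and for Gpr61 it lies at 0.0472 CPM below all 6.

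The other neighbours of Amigo1 had small gaps or none. Of the 33 measured genes within 500 kb, 6 lay outside the range (18.2%), 3 on each side. Cyb561d1, a cytochrome b561 family gene 3.401 kb away, was at 22.3 CPM in the WT library, at 17.6 to 19.4 CPM in KO and at 1.67 to 2.94 CPM in neo, so the pooled range runs from 1.67 to 19.4 CPM and its lower end is set by neo alone (neo against KO adjusted p = 0.00354, edgeR; 3 of 17083 genes, 0.0176%, passed that comparison). Without neo replicate 2, Cyb561d1 did not pass that comparison. The gap of Cyb561d1 to WT was 1.15-fold. Atxn7l2, 9.936 kb away, lay within the range, at 6.80 CPM in WT, 4.22 to 6.86 CPM in KO and 1.16 to 1.47 CPM in neo. The mean differences, deficient minus WT, were -1.66 (log2) for Cyb561d1 and -1.10 for Atxn7l2. Gnai3, a G protein alpha subunit gene 40.19 kb away, stood at 133 CPM in WT and lay below all 6 deficient libraries, and Ampd2, an AMP deaminase gene 99.68 kb away, lay above all 6. Farther along chromosome 3 the share outside was 22.6% of 31 genes between 0.5 and 2 Mb, 21.4% of 42 between 2 and 5 Mb, 9.52% of 63 between 5 and 10 Mb, 16.7% of 275 between 10 and 20 Mb and 15.9% of 492 beyond 20 Mb. On all other chromosomes it was 16.0% of 17593.

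**Figure D3:**
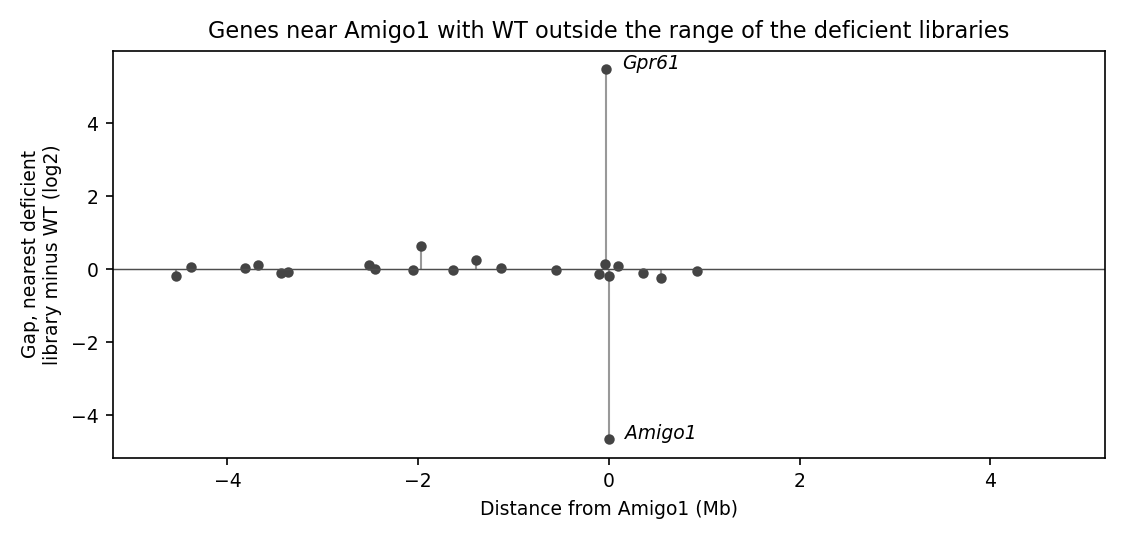
Gap of the nearest deficient library minus WT (log2, y axis) for the 23 genes with WT outside the range that lie within 5 Mb of Amigo1, by their distance from it (x axis). Gpr61 and Amigo1 reach far from 0 and the others lie near it.

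The genes that stood highest in WT after Amigo1 were mostly those of autonomic neurons. The autonomic ganglion list was chosen with earlier results of these libraries known. Of its 17 measured genes, 12 lay above all 6 deficient libraries and none below, against 8.10% of all measured genes above. Of the 17, 6 had a gap of at least 2-fold, against 0.0540% of all measured genes with WT higher by that gap. Over all 17 genes the list's median difference, deficient minus WT, was -0.84 (log2), against -0.0088 over all measured genes. That median includes genes that as few as 1 library could bring past the count filter, and it was not taken without them. Of the 17 genes, 9 did not pass the count filter in the deficient libraries alone. Among the 8 that did, 4 lay above the range and 1 had a gap of at least 2-fold, against 7.81% and 0.0117% of all 17083 genes that passed it. No member passed edgeR. Summed over the list, WT stood at 134 CPM and the deficient libraries at 92.0 to 104.6 CPM. In bulk tissue, fewer cells of a type and less RNA per cell cannot be told apart.

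Of the transcription factors, Hand2 and Phox2a were at low levels in WT and at 0 to 0.340 CPM elsewhere, while Gata2 and Gata3 lay within the deficient range. Hand2, which drives autonomic neuron differentiation, stood at 1.84 CPM in WT from 39 counts and at 0 in all 6 deficient libraries, at least 64.7-fold higher against a floor of 3 counts over the group. Phox2a, a homeobox gene of autonomic neurons, stood at 1.18 CPM in WT and at 0, 0.110 and 0.340 CPM in KO replicates 1 to 3 and 0.0438, 0 and 0 CPM in neo replicates 1 to 3. Tlx2, a homeobox gene of neural crest neurons outside the list, stood at 0.708 CPM against 0 to 0.0613 CPM. Counts of Hand2, Phox2a and Tlx2 are low, and none of the 3 passed the filter in the deficient libraries alone.

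Among transmitter genes, Vip and Nos1 reached higher levels in WT than Hand2, Phox2a and Tlx2. The cholinergic genes were at 1.94 CPM or less in WT. Vip, the vasoactive intestinal peptide gene, stood at 14.7 CPM in WT from 312 counts, against 0, 0.0550 and 0.170 CPM in KO replicates 1 to 3 and 0.0438, 0 and 0.751 CPM in neo replicates 1 to 3. WT was above all 6 by a gap of 12.2-fold, and pooled counts were 97.1-fold higher (95% counting interval 58.8 to 172). Its edgeR adjusted p was 0.700, and 0.0014 without neo replicate 3, the highest deficient library, within a range of 0.0014 to 1 over its alternatives. Nos1, neuronal nitric oxide synthase, stood at 8.64 CPM in WT and at 2.59, 3.45 and 4.17 CPM at the lowest, median and highest deficient library. Of the cholinergic genes, Slc18a3, the vesicular acetylcholine transporter, stood at 0.755 CPM against 0 in all 6 (at least 26.6-fold higher), and Slc5a7, the choline transporter, at 1.94 CPM against 0.113 to 0.771 CPM. Chat, the acetylcholine-synthesising enzyme gene, was below the filter, at 0.189 CPM in WT and 0 to 0.126 CPM elsewhere. Vip, Slc18a3 and Slc5a7 did not pass the count filter in the deficient libraries alone. They were measured through the WT library, where they are high, so their ratios and p-values give no independent support.

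Receptor and axon genes ranged from a gap of more than 2-fold, for Htr3a and Chrna3, to values next to the range. Chrna3, the ganglionic nicotinic receptor subunit, stood at 3.07 CPM in WT and at 0.566, 0.802 and 1.09 CPM at the lowest, median and highest deficient library. Its partners Chrnb4, at 0.755 CPM in WT against 0 to 0.397 CPM, and Chrna5, at 0.944 CPM against 0.307 to 0.936 CPM, came closer to the range. Htr3a, a serotonin-gated channel subunit, stood at 6.32 CPM against 1.47 to 2.18 CPM, and Sncg, gamma-synuclein, at 3.78 CPM against 1.05 to 1.93 CPM. Cplx1, a regulator of vesicle fusion, stood at 1.65 CPM against 0.184 to 0.605 CPM. Slc10a4, a vesicular transporter-like protein of cholinergic and monoaminergic neurons, stood at 1.27 CPM against 0.0683 to 0.429 CPM. Chrnb4, Chrna5, Cplx1 and Slc10a4 did not pass the count filter in the deficient libraries alone. Prph, peripherin, and Ret, the receptor for GDNF-family factors, lay only just above the range, at 45.9 CPM against 27.3 to 44.2 CPM and 15.9 CPM against 10.43 to 15.4 CPM.

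Genes of the noradrenergic branch were near the detection limit or within the range. Th, tyrosine hydroxylase, had 4 counts in WT (0.189 CPM) and 0.0438 to 0.273 CPM in the deficient libraries. Dbh, dopamine beta-hydroxylase, had 7 counts in WT (0.330 CPM) and 0 to 0.0683 CPM elsewhere. Both were below the filter, and at this depth a difference in either was not called. Slc6a2, the noradrenaline transporter, stood at 3.82 CPM in WT within 2.67 to 6.67 CPM, and Gata2, Gata3, Ddc and Gal were also within the range. Neo replicate 1, high in Xist like WT, had 0.0438 CPM of Vip and 0 of Hand2 and Slc18a3. The part of high Xist in the differences of these genes was not tested.

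**Figure D4:**
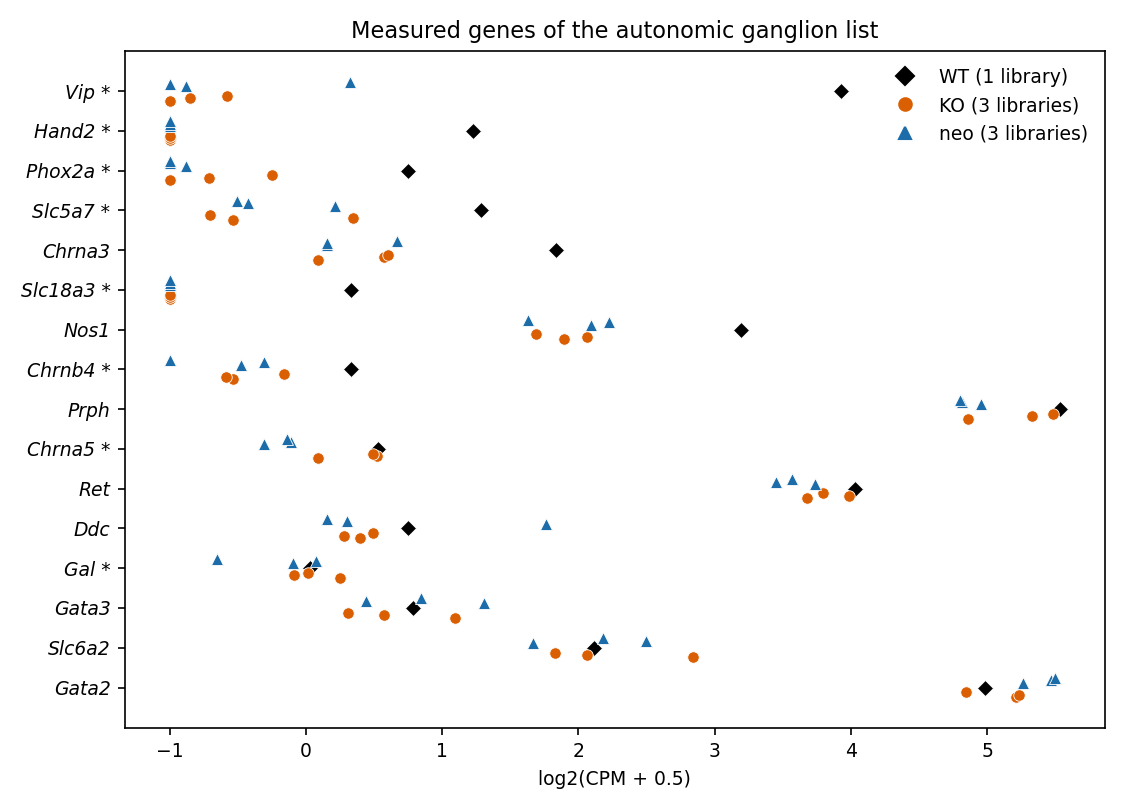
Level of 16 of the 17 measured autonomic ganglion genes as log2(CPM + 0.5) in each library (black diamonds WT, orange circles KO, blue triangles neo), ordered by the difference from WT; an asterisk marks the 8 genes drawn that did not pass the count filter in the deficient libraries. WT lies right of all other points for 11 of those drawn and within them for Ddc, Gal, Gata3, Slc6a2 and Gata2.

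On the side with WT lower, gaps beyond Gpr61 were small and no such gene passed the test. Slc22a21, a carnitine transporter gene, stood at 0.944 CPM in WT and at 1.98, 2.53 and 3.68 CPM at the lowest, median and highest deficient library. Chil4, a chitinase-like protein gene of airway epithelium, stood at 14.8 CPM in WT and at 23.1 to 101.8 CPM elsewhere, a spread among the deficient libraries wider than the 1.54-fold gap. Slc4a10, a bicarbonate transporter gene, stood at 0.378 CPM against 0.755 to 1.37 CPM. Immune genes were among these: the chemokine gene Cxcl2 had 1 count in WT and 0.252 to 42.2 CPM elsewhere, Iigp1, an interferon-inducible GTPase, stood at 6.09 CPM against 8.59 to 32.4 CPM, and Ms4a6c, a membrane protein gene of myeloid cells, at 2.64 CPM against 3.80 to 9.69 CPM. Cd72, a B cell co-receptor, stood at 0.991 CPM against 1.53 to 1.96 CPM.

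The endothelium, macrophage and neutrophil lists had a lower mean log2(CPM + 0.5) in WT than in any deficient library; for neutrophil genes the summed level did not, at 1268 CPM in WT within 1029 to 2757 CPM. In the endothelium list 8 of 12 genes were below all 6 deficient libraries (against 7.91% of all measured genes) and all 12 had a higher deficient mean, with a median difference of 0.31 (log2). Cdh5, the endothelial cadherin, stood at 28.4 CPM in WT and at 32.9, 40.3 and 46.6 CPM at the lowest, median and highest deficient library, and Emcn, endomucin, at 8.92 CPM against 10.5 to 14.5 CPM. Of the 11 macrophage genes all had a higher deficient mean (median difference 0.32) and 1, Tyrobp, lay outside the range. Of 11 neutrophil genes 3 were below the range, with a median difference of 0.62, or 0.33 without neo replicate 3; S100a8, a calgranulin gene, stood at 11.99 CPM in WT and reached 79.3 CPM in KO replicate 3 and 91.6 CPM in neo replicate 3. In the erythroid list 6 of 10 genes lay above the range (against 8.10% of all measured genes), and the other 4 lay within it with a higher deficient mean, among them Car2, a carbonic anhydrase, at 83.97 CPM in WT and 81.6 to 98.5 CPM elsewhere. The list's mean log2 level was within the range. Of those above, Hbb-bs, an adult beta-globin gene, stood at 323 CPM in WT and 158 to 282 CPM elsewhere, and Hba-a1, an alpha-globin gene, at 29.2 CPM against 16.9 to 25.9 CPM. No member of these lists passed edgeR.

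Of all 48 lists, the mean log2 level of WT lay above the deficient libraries in 4, below in 6 and within in 38. Skeletal muscle genes had a median difference of 1.09 that moved with 1 library: Acta1, skeletal actin, was at 1.04 CPM in WT and reached 335 CPM in neo replicate 1, with at most 7.31 CPM in the other 5, and the list's median difference was 0.19 without neo replicate 1. In the ensheathing glia list, whose median difference of 0.23 was 0.049 without KO replicate 3, 4 of 16 genes lay below the range (against 7.91% of all measured genes), among them Fabp7, a fatty acid-binding protein of glia, at 136 CPM in WT against 150 to 180 CPM. Trigeminal sensory genes, markers of the other sensory nerve of the nose, had 2 of 10 below the range, against the same 7.91%, the ATP receptor P2rx3 (1.23 against 1.57 to 2.31 CPM) and the irritant receptor Trpa1 (0.614 against 0.736 to 1.32 CPM); the median difference of 0.11 was 0.045 without KO replicate 1, 0.072 without neo replicate 2 and 0.17 without neo replicate 1. The part of sampled tissue in these differences was not tested.

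**Figure D5:**
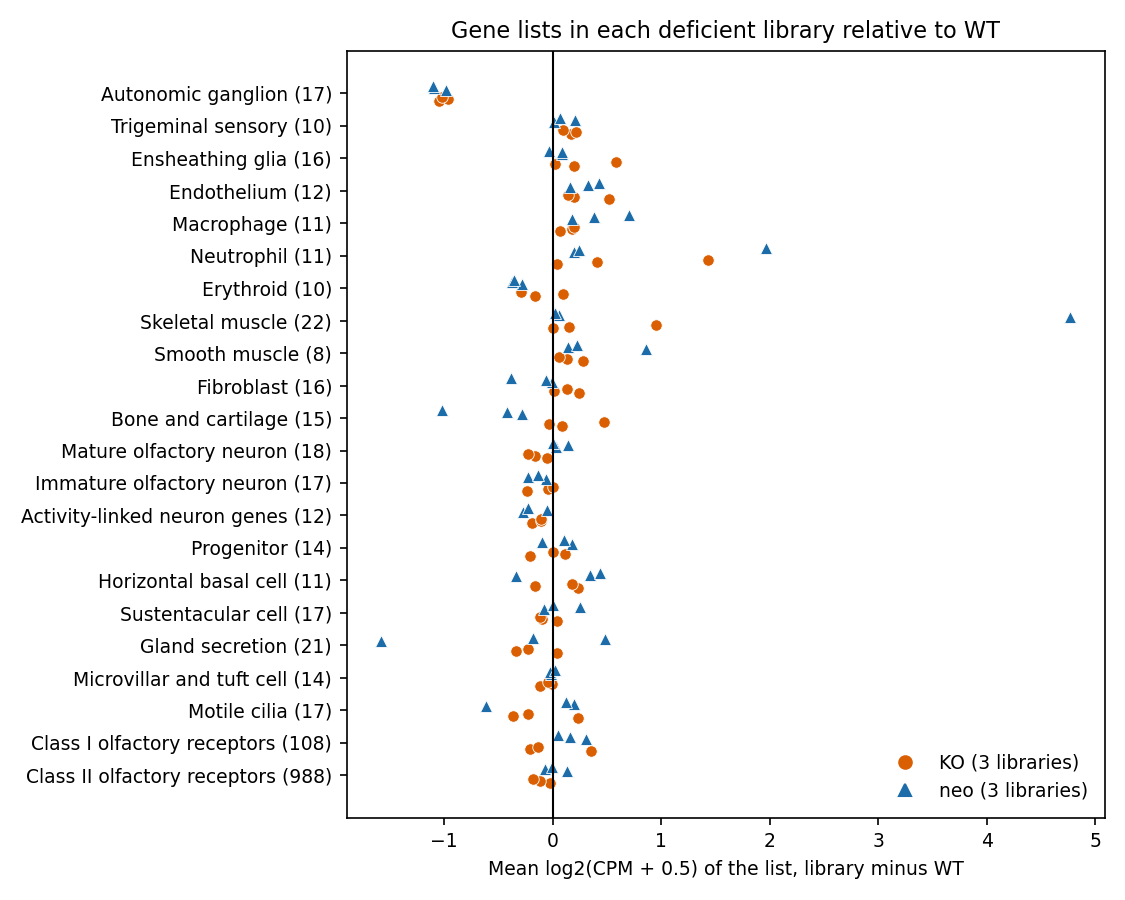
Mean log2(CPM + 0.5) of each gene list in each deficient library minus the same in WT (x axis), with the number of measured genes in parentheses (orange circles KO, blue triangles neo; the line at 0 is WT). All 6 points lie left of 0 for autonomic ganglion genes and right of it for endothelium, and single neo replicates stand apart for skeletal muscle and gland secretion.

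Genes of the olfactory neuron lineage lay within the range or had small gaps. Of 18 mature neuron genes 1, Gng13, a G protein gamma subunit of the odour cascade, lay above the range, at 164 CPM in WT against 121 to 160 CPM. Of 17 immature neuron genes 5 lay above it (29.4%, against 8.10% of all measured genes), all by under 1.1-fold, and 15 had a lower deficient mean, with a median difference of -0.13 (log2). The 5 included Gap43, a growth cone protein (337 against 242 to 332 CPM), and Tubb3, a neuronal tubulin (366 against 281 to 345 CPM). The mean log2 level of the immature neuron list was within the range. The activity-linked list had a mean log2 level in WT above all 6 libraries, at 4.97 against 4.69 to 4.92, and a median difference of -0.12. Of its 12 genes 2 lay above the range (16.7%, against 8.10% of all measured genes), both by under 1.1-fold. Kirrel2, an adhesion gene whose level follows neuronal activity, stood at 161 CPM in WT and 83.0, 103 and 156 CPM at the lowest, median and highest deficient library. Of 14 progenitor genes 1 lay below, Lgr5, a globose basal cell gene. Horizontal basal cell, proliferation and motile cilia lists had no gene outside the range.

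Olfactory receptor genes took 0.399% of gene counts in WT and 0.388 ± 0.0556% (SD, n = 6) in the deficient libraries, so WT was within their range of 0.331 to 0.492%. Of 108 measured class I receptor genes 3 lay above the range and 13 below, and of 988 class II genes 98 lay above (9.92%) and 61 below (6.17%), against 8.10% above and 7.91% below of all measured genes. Single receptors had small gaps. Olfr118 stood at 1.42 CPM in WT against 0.245 to 0.755 CPM, and Olfr12 at 5.48 CPM against 1.37 to 3.74 CPM. Olfr118 did not pass the count filter in the deficient libraries alone. In the other direction Olfr1375 stood at 0.283 CPM against 0.660 to 0.920 CPM, and Olfr994 at 2.55 CPM against 3.80 to 5.58 CPM. None passed edgeR, and receptors with near-identical copies are uncertain because multimapping reads are absent from the gene counts.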

How the data were processed

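RNA was sequenced from 7 mouse olfactory epithelium libraries after poly(A) capture, per the labels' protocols. The deposited tables hold read counts by gene as whole numbers (stranded, by the table's name) and RSEM TPM, and Trimmomatic 0.35, STAR 2.5.1b, RSEM and DESeq2 1.18.1 on GRCm38 (mm10) are named in the submitters' processing notes without their roles. The deposited TPM values were used only as an alternative. Groups came from sample titles. Whether the libraries are from separate animals is not stated in the labels, so a p-value here measures only the spread between these samples.

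Genes outside X and Y were filtered with filterByExpr (minimum count 10, minimum total 15) over the 3 groups and scaled by TMM in edgeR 4.0.16 (R 4.3.3). Since WT is a group of 1, a gene can pass through 1 library: 1447 of the 18530 measured genes did not pass in the 6 deficient libraries alone, and 8 of the 10 genes with WT at least 2-fold higher were among them. Gaps and differences are on log2(CPM + 0.5), which understates changes of low genes. The test was edgeR's robust quasi-likelihood test of deficient against WT with Benjamini-Hochberg adjustment at 0.05, two-sided; neo against KO used the 6 deficient libraries. Pooled-count ratios carry exact 95% intervals for counting error alone. Scripts were tested on simulated data. GENCODE vM21 held 41577 of the gene identifiers at identical coordinates.

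The members, gene lists and tests were chosen with earlier results of these data known. Genes named had WT outside the range and no clone-type symbol or pseudogene suffix: the 15 largest gaps in each direction, the Amigo family, neighbours within 500 kb with a 2-fold gap and the closest gene to either side, up to 4 members per list outside the range or otherwise the 2 with the largest difference, up to 5 olfactory receptor genes in each direction and every edgeR call. Genes named beside these, such as Omp, Chrnb4, Chrna5, Prph, Ret, Chat, Th, Dbh, Slc6a2, Gata2, Gata3, Ddc, Gal, Car2, Gnai3 and Ampd2, were chosen after their values were seen. The values of 1 gene are not reported here; it stays in the counts and list summaries. Alternatives used limma 3.58.1 and DESeq2 1.42.0 among others.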

Additional observations from a re-analysis of the deposited data

Results flagged for a closer look

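In 9 of 81 groups of 6 deficient libraries examined (33 genes and 48 lists), 1 library lay far from the other 5, where chance flags about 1 in 20 groups. Among genes these were Vip at 0.751 CPM in neo replicate 3, Amigo2 at 9.01 CPM in KO replicate 3, and Ms4a6c at 9.69 CPM and Iigp1 at 32.4 CPM, both in neo replicate 3. Lists were judged by their mean log2 level, and the values given here are summed levels. In KO replicate 3 the lists were ensheathing glia at 1071 CPM and immediate early genes at 453.8 CPM. In neo replicate 1 they were skeletal muscle at 1804 CPM, smooth muscle at 2366 CPM and imprinted genes at 2251 CPM. The summed smooth muscle level was higher in KO replicate 3 (2733 CPM) and neo replicate 3 (2989 CPM). Only the mean log2 level of smooth muscle set neo replicate 1 apart, at 5.83 against 5.02 to 5.25 in the other deficient libraries. Cyb561d1 differed between the 2 deficient alleles (neo against KO adjusted p = 0.00354, edgeR), so its pooled level stands for neither.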

How the results depend on the processing

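With 1 WT library, low counts limit most of what can be said: the counts depend on the filter and the pseudocount, and Gpr61 was the one gene past the threshold in every test run. WT lay outside the range in 4936 genes with no count filter, in 7299 against KO alone and in 8091 against neo alone, and in 3349 to 4290 when 1 deficient library was left out; fewer libraries make a narrower range. Gaps of at least 2-fold numbered 2 at a mean count of at least 50, 3 among genes past the filter in the deficient libraries (chosen after seeing the data), 25 and 5 with pseudocounts of 0.1 and 1 CPM, 47 against neo alone, and 10 to 16 leaving out 1 library. Amigo1, Vip, Hand2, Htr3a and Gpr61 kept such a gap in 13 of 13 alternatives and Phox2a in 8. With the deposited TPM some genes named with small gaps came within the range, among them Gng13, Gap43, Hba-a1, Emcn, Tyrobp, Fabp7, Lgr5 and S100a8. Others, such as Tubb3, Kirrel2, Hbb-bs and Cdh5, stayed outside it. Genes past the threshold numbered 2 with no filter (Hand2 added), 2 against KO alone (Vip added), 2 against neo alone (Gm11942 added), 3 by limma (Amigo1 and Vip added), 1 by DESeq2 and 1 to 3 leaving out 1 library. With a term for libraries high in Xist there were 64, of which 8 were in the skeletal muscle list and 50 in no list, among them Casq1, Myog and Tcap, also known from skeletal muscle; that fit compares WT with neo replicate 1 alone, the library high in muscle genes. The autonomic list's median was -0.90 without Gm42418 in the totals, -0.53 with TPM and -0.91 to -0.74 leaving out 1 library. Each was taken over all 17 measured genes, of which 8 passed the filter in the deficient libraries alone. The mast cell median ranged from -0.0996 to 0.024 leaving out 1 library, turning above 0 without KO replicate 3. The edgeR difference of Amigo2, 0.093 in the fit reported, ranged from -0.14 to 0.18 leaving out 1 library, turning below 0 without KO replicate 3, and was -0.27 with the replicate block and -0.12 with the Xist term. Named genes that differed between neo and KO numbered 0 to 1 leaving out 1 library. Replicate numbers did not pair the libraries: deviations of same-numbered KO and neo libraries correlated at -0.101, -0.0362 and 0.193, and in 1 number of 3 did both correlate best with each other. With the replicate block the count past the threshold was 1. The causes of these changes were not tested where none is named.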

Other observations

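Enamel matrix genes, named after their values were seen, were lowest in WT and varied widely among the deficient libraries. Ambn, ameloblastin, stood at 1.09 CPM in WT and at 1.51, 21.7 and 158 CPM at the lowest, median and highest deficient library. Enam, enamelin, stood at 0.283 CPM in WT and at 0.503, 5.32 and 33.7 CPM in the same order. Both gaps were under 1.5-fold, and KO replicate 1 lay next to WT for both genes (1.51 CPM of Ambn, 0.503 CPM of Enam).

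Vomeronasal receptor genes, expressed in the neighbouring pheromone-sensing organ, took 0.00819% of counts in WT, within the deficient range of 0.000877 to 0.0153%. Interferon-stimulated genes had 3 of 15 below the range (against 7.91% of all measured genes) and a list mean within it, with Mx1 at 0.661 CPM in WT and 0.944 to 3.41 CPM elsewhere.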
